A study of Homo sapiens with 6 samples.

Results

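The 10 long noncoding RNA genes followed here in PANC-1 cells with and without maslinic acid were MALAT1, NEAT1, TUG1 and PVT1, and the snoRNA host genes GAS5, SNHG1, SNHG5, SNHG6, SNHG8 and SNHG12. They were chosen by name as 10 of the 58825 genes in the deposited table, each name matched 1 Ensembl identifier, and all 10 were among the 17774 genes tested. PANC-1 is an established human pancreatic carcinoma cell line, and maslinic acid (MA) is a plant triterpenoid. The series held 3 samples labelled MA PANC-1, treated with 40 μM MA for 24 h, and 3 untreated samples labelled PANC-1, described in the methods as 0 μM MA and as biological replicates. The labels do not say whether the untreated cells received vehicle; the general culture methods name DMSO as the counterpart of MA, and the sequencing methods do not. Poly(A) RNA was sequenced as stranded paired-end libraries, and the question was which RNAs differed with MA.

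Long noncoding RNAs act without being translated. MALAT1 is a nuclear RNA of splicing factor compartments called nuclear speckles. NEAT1 is the scaffold of paraspeckles, nuclear bodies built on its long isoform. Its short isoform has a poly(A) tail, while the usual ends of MALAT1 and of long NEAT1 are cut by RNase P and closed by a triple helix in place of a poly(A) tail. TUG1 is a widely expressed RNA with nuclear and cytoplasmic forms, and PVT1 is a multi-exon RNA known from amplified regions of tumour genomes. The snoRNA host genes carry small nucleolar RNAs in their introns. Their spliced RNAs encode little protein, many are destroyed by nonsense-mediated decay (NMD), and several start with the pyrimidine tract of 5′ TOP RNAs, whose translation follows growth signals.

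After MA, the RNAs without a SNHG or GAS5 name were lower and the snoRNA hosts were not called in either direction. MALAT1, NEAT1, TUG1 and PVT1 each had an unadjusted p under 0.05 (edgeR, quasi-likelihood), and in each the highest MA sample was below the lowest untreated sample. That is 4 of 10 members lower and 0 higher, where the shares among all genes tested were 5.86% lower and 5.37% higher. The members were chosen with earlier results of these data known, so these counts are a description and not a test. Groups without overlap in the lower direction were found for the same 4 members and for 11.1% of genes, and in the higher direction for 0 members and 8.79% of genes. None of the 10 passed a Benjamini-Hochberg adjusted p of 0.05 in edgeR, and the lowest adjusted p was 0.388, where 0.0394% of genes passed. DESeq2 called 1 member, NEAT1, with an adjusted p of 0.0485, where it called 263 genes, 1.8% of those it gave an adjusted p. Bulk RNA cannot tell fewer cells carrying an RNA from less of it per cell.

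The estimated counts summed to 56978375 in the shallowest sample and 70275355 in the deepest. The members took 0.0285%, 0.0246% and 0.0334% of them in MA PANC-1 1, 2 and 3, and 0.0436%, 0.04% and 0.0334% in PANC-1 1, 2 and 3. One library stood apart. On the first principal component (26.4% of the variance) MA PANC-1 1, 2 and 3 lay at −29.5, −73.6 and 16.2. PANC-1 1, 2 and 3 lay at 24, 18 and 44.9. MA PANC-1 3 was thus next to the untreated samples, and MA PANC-1 1 lay towards MA PANC-1 2. The counts of MA PANC-1 2 came from genes of higher GC content, 51.2% against 49.8% to 50.3%. The calls without MA PANC-1 2 were 3 of the 10 members in place of 4, where those among all genes were 10.3% in place of 11.2%. Values without it stand beside each called member. The cells kept some epithelial markers and lacked others. SOX9, a ductal transcription factor, fell from 17.4 FPKM ± 0.806 to 13.5 ± 0.941 (SD, n = 3; log2 fold change −0.32, adjusted p = 0.388, edgeR), with no overlap between groups. It was the 1 call among 5 epithelial markers tested, where 11.2% of all genes were called in either direction and 11.1% had lower groups without overlap, so nothing is read from the count. KRT18 stood at 295 FPKM ± 29.1 after MA and 325 ± 12.3 without (SD, n = 3), while KRT19 and EPCAM were under 0.1 FPKM in both group means. Of 14 markers of blood, endothelial, stromal, islet and acinar cells, 12 did not reach the level tested. CD68, a lysosomal protein used as a macrophage marker, stood at 30.2 FPKM ± 6.1 with MA and 31.1 ± 8.56 without, above every member, and the stromal marker LUM at 0.449 ± 0.14 and 0.577 ± 0.0547 (SD, n = 3). Their part in the results was not tested. CD3E, INS, GCG, PRSS1 and CPA1 were listed at 0.0001 FPKM, the value for no reads, in every sample.

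MALAT1 lies on chromosome 11 of GRCh38, from 65497688 to 65506469 on the plus strand, as 1 long exon in its longest annotated form. MA PANC-1 1, 2 and 3 had 2.41, 1.88 and 4.85 FPKM of it, and PANC-1 1, 2 and 3 had 14.0, 6.38 and 5.15. FPKM is the fragment count per length of RNA and per library size, and the length used is examined further on. The 3 MA samples were the 3 lowest, but MA PANC-1 3 and PANC-1 3 were close, and PANC-1 1 stood above all others. Counts behind these values ran from 1270 to 10367. The log2 fold change was −1.46 (SE 0.46, p = 0.0153, adjusted p = 0.411, 95% interval −2.54 to −0.37, edgeR), and the exact permutation p was 0.1, the smallest that 3 against 3 allows. MALAT1 was the 1 member past the study's thresholds for DEGs, a change of 2-fold either way with an unadjusted p under 0.05. These were passed by 1.25% of genes in the lower direction, 0.675% in the higher and 1.92% in either. Its call rested on single libraries. Without PANC-1 1 the log2 fold change was −0.90, short of a fold of 2. Without MA PANC-1 1 or MA PANC-1 2 it was −1.31 and −1.23, with unadjusted p just over the threshold and adjusted p of 0.612 and 0.497.

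**Figure D1:**
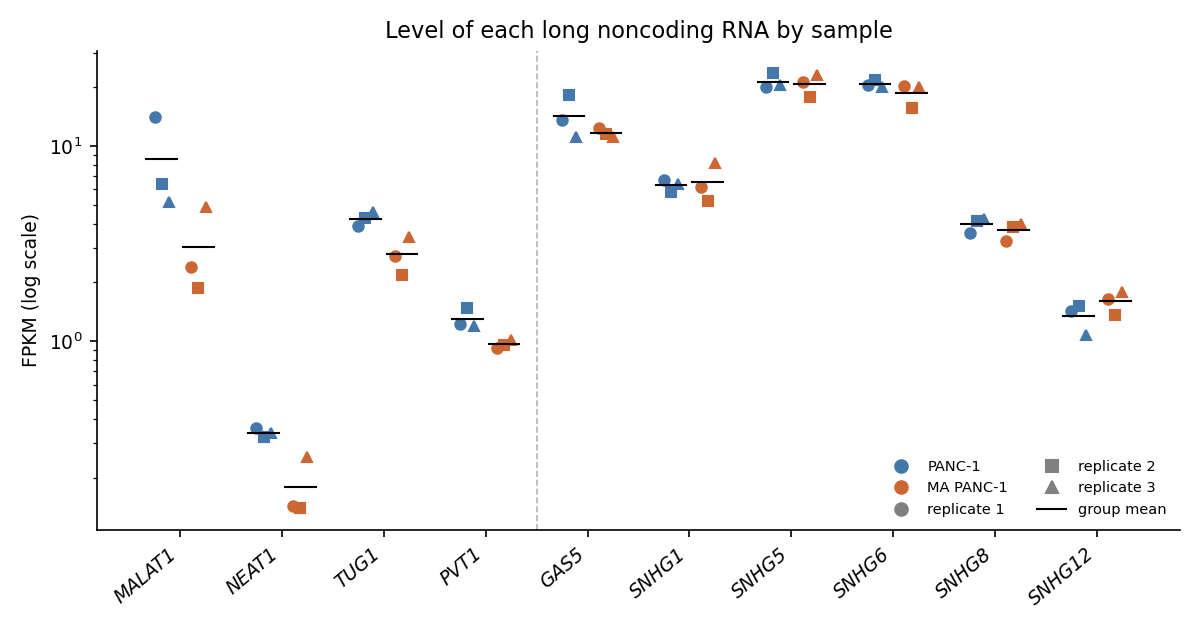
FPKM of the 10 RNAs (log scale) in each of the 6 samples, with PANC-1 in blue, MA PANC-1 in orange, marker shapes for replicates and black bars for group means; the dashed line parts MALAT1, NEAT1, TUG1 and PVT1 from the snoRNA hosts. The orange points lie below all blue points for the 4 RNAs on the left, and the colours mix for the 6 hosts on the right.

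NEAT1, a close neighbour of MALAT1 on chromosome 11 (65422774 to 65445540, plus strand), was the least abundant member by FPKM. Its FPKM was 0.143, 0.140 and 0.255 in MA PANC-1 1, 2 and 3 and 0.361, 0.323 and 0.339 in PANC-1 1, 2 and 3. The untreated samples were tightly grouped (SD 0.019) and the MA samples were all lower, with MA PANC-1 3 nearest to them. The log2 fold change was −0.89 (SE 0.25, p = 0.00911, adjusted p = 0.388, 95% interval −1.49 to −0.3, exact permutation p = 0.1). Leaving out any single sample gave −1.2 to −0.75 and kept the unadjusted p under 0.05 each time, and the value was −0.78 without MA PANC-1 2.

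TUG1, on chromosome 22 from 30969245 to 30978847 on the plus strand, had 2.74, 2.19 and 3.43 FPKM in MA PANC-1 1, 2 and 3 and 3.90, 4.26 and 4.57 FPKM in PANC-1 1, 2 and 3. The groups did not overlap, and MA PANC-1 3 was again the MA sample nearest to the untreated ones. It had the smallest unadjusted p of the members (log2 fold change −0.58, SE 0.15, p = 0.00706, adjusted p = 0.388, exact permutation p = 0.1). Leaving out single samples kept it between −0.73 and −0.46, past the unadjusted threshold each time, and it was −0.46 without MA PANC-1 2.

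The library was made from poly(A) RNA, so how each RNA could enter it bears on what was counted. Runs of at least 10 A were searched on the sense strand of the annotated transcripts of 8 members, and 4 members held one in some transcript: MALAT1 (longest 13), NEAT1 (22), TUG1 (18) and the uncalled host SNHG5 (14, with a run in 7 of 23 transcripts). PVT1 and SNHG6 were not searched. The longest runs of MALAT1, NEAT1 and TUG1 are shown with the neighbouring bases, in capitals, to show where an A-rich stretch lies within each RNA, since the usual ends of MALAT1 and long NEAT1 carry no tail. The sequences are from GENCODE 29 transcripts on GRCh38, plus strand, 5′ to 3′.
MALAT1: tagcttAAAAAAAAAAAAAgcaaaagatgc
NEAT1: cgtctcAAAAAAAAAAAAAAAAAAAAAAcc
TUG1: agctttAAAAAAAAAAAAAAAAAAggctga
The MALAT1 stretch lies at chr11:65506092-65506121 and has 13 A at bases 8337 to 8349 of the 8708 of its longest annotated transcript. The NEAT1 stretch lies at chr11:65440837-65440866 with 22 A at bases 18046 to 18067 of the 22743 of the long form. The TUG1 stretch lies at chr22:30976058-30976087, in exon 3 of 3 of its longest transcript, with 18 A at bases 4138 to 4155 of 7469. Whether these runs were captured was not tested, since the table gives 1 value per gene. Other RNAs that normally carry no poly(A) tail were measured from a fixed list of 6, of which 4 reached the level tested and 1 was called lower, beside 5.86% of all genes. RN7SL1, the RNA of the signal recognition particle, fell from 6.53 FPKM ± 1.97 to 3.54 ± 0.683 (SD, n = 3; log2 fold change −0.84, adjusted p = 0.435, edgeR). RN7SK, a regulator of transcription elongation, had 0.655 and 0.35 FPKM without and with MA, RN7SL2 had 3.07 and 2.20, and the RNase P RNA RPPH1 had 0.24 and 0.79, and none of the 3 passed the unadjusted threshold. The telomerase RNA TERC was listed at 0.0001 FPKM in all 6 samples.

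PVT1, on chromosome 8, had 0.924, 0.958 and 1.01 FPKM after MA and 1.23, 1.48 and 1.20 FPKM without. Both groups were narrow and the step between them was small. The log2 fold change was −0.39 (SE 0.15, p = 0.0355, adjusted p = 0.435, exact permutation p = 0.1), and it was −0.43 without MA PANC-1 2. The call was lost on leaving out any 1 of 4 other samples (both other MA samples, PANC-1 1 and PANC-1 2), with the direction kept.

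None of the 6 snoRNA hosts passed the unadjusted threshold in edgeR. GAS5, a host on chromosome 1 (173858559 to 173868882, minus strand) named for its rise in growth-arrested cells, had 12.3, 11.5 and 11.1 FPKM in MA PANC-1 1, 2 and 3 and 13.6, 18.1 and 11.1 FPKM in PANC-1 1, 2 and 3. The lowest sample of each group was at the same level, and PANC-1 2 was the highest. Its log2 fold change was −0.25 (95% interval −0.68 to 0.18, exact permutation p = 0.4). It was −0.04 without PANC-1 2, and −0.41 without PANC-1 3, where it passed the unadjusted threshold. SNHG5, on chromosome 6 (85660950 to 85678733, minus strand), had 21.2, 17.7 and 23.1 FPKM after MA and 19.9, 23.7 and 20.5 without, with a log2 fold change of −0.02 (interval −0.3 to 0.27). SNHG6, on chromosome 8, had 20.3, 15.6 and 19.9 FPKM after MA and 20.4, 21.7 and 19.9 without (−0.12, interval −0.4 to 0.17). MA PANC-1 2, the library that stood apart, was the lowest of the 6 samples for both.

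SNHG1, on chromosome 11 (62851988 to 62855914, minus strand), had 6.18, 5.24 and 8.13 FPKM after MA and 6.68, 5.82 and 6.34 without, so that the MA samples held both the lowest and the highest value (log2 fold change 0.08, interval −0.29 to 0.45). SNHG8, on chromosome 4 (118278709 to 118279823, plus strand), ranged from 3.25 to 3.96 FPKM after MA and from 3.56 to 4.21 without (−0.07, interval −0.51 to 0.38). SNHG12, on chromosome 1 (28578538 to 28582986, minus strand), was the host with the largest positive estimate, 1.36 to 1.79 FPKM after MA and 1.08 to 1.52 without (0.28, interval −0.18 to 0.73, exact permutation p = 0.3). The intervals of SNHG5 and SNHG6 held neither a doubling nor a halving, and nor did those of the other 4 hosts, but smaller changes lay within them. The median log2 fold change of the hosts was −0.041 and that of the other 4 members −0.735, beside −0.002 over all genes tested. Whether the 2 groups of members differ was not tested.

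**Figure D2:**
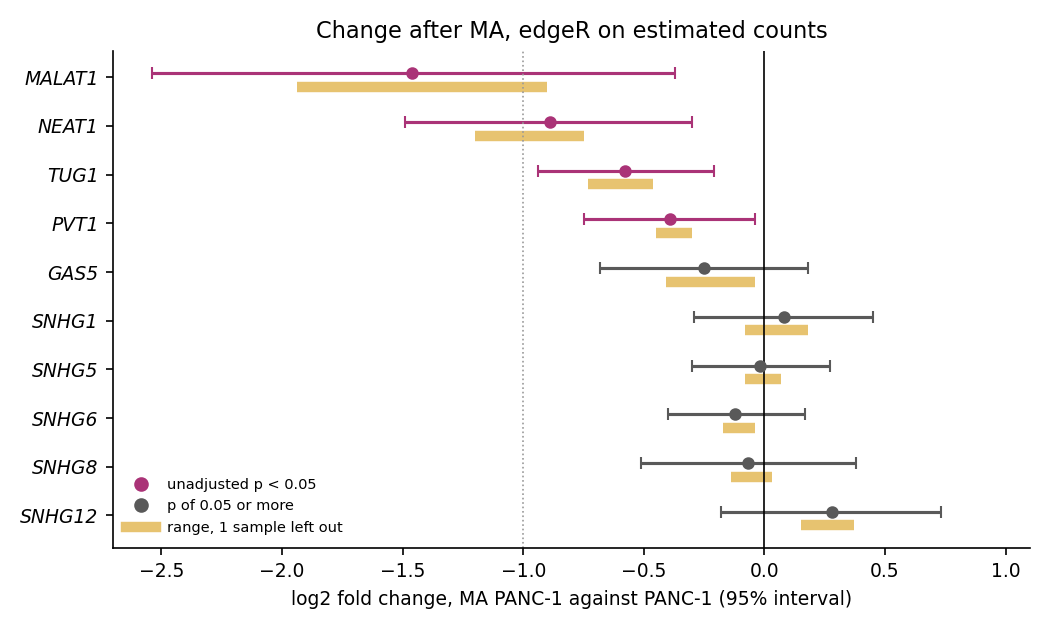
Log2 fold change of each RNA after MA with its 95% interval from edgeR (points and bars, magenta where the unadjusted p was under 0.05) and the range of values on leaving out 1 sample at a time (yellow bars); the dotted line marks a fold of 0.5. The point of MALAT1 alone lies beyond the dotted line, its yellow bar reaches −0.90, and the 6 hosts have intervals that cross 0.

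Where a host RNA starts decides whether it has the 5′ TOP form, a C followed by pyrimidines. RefSeq start windows on GRCh38.p14 were read for 7 of the 10 members. The 4 below belong to hosts and are shown because they differ in this feature while none of these hosts was called. Each gives 10 bases before the start and 20 from it, 5′ to 3′ on the gene's strand, with capitals for a run of at least 5 pyrimidines that begins with C at the start itself.
SNHG12: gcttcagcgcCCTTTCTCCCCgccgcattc
SNHG5: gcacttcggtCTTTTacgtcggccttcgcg
SNHG1: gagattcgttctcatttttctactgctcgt
SNHG8: ctcggcctttcacattcgggaagcgtcggg
The windows lie at chr1:28581854-28581883 for SNHG12, chr6:85678714-85678743 for SNHG5 and chr11:62855866-62855895 for SNHG1, all on the minus strand, and at chr4:118278752-118278781 on the plus strand for SNHG8. SNHG12 had a run of 11 pyrimidines and SNHG5 a run of 5, while SNHG1 and SNHG8 began with runs of 3 and 1. Of the 8 windows read, 2 held a run of 5 or more, those of SNHG12 and SNHG5. Such a run stood at 4.07% of the 35116 RefSeq starts in the table. The window of GAS5, a host also not called, is not shown. It began with A, had no such run and started 163 bases from the deposited start. The RefSeq start of SNHG5 was the deposited start, and those of SNHG1, SNHG8 and SNHG12 lay 29, 53 and 1113 bases from it, so the windows describe these starts only. Of 24 other 5′ TOP mRNAs outside the ribosomal proteins, 1 rose and 1 fell (4.17% each way, beside 5.37% of all genes higher and 5.86% lower), with a median log2 fold change of −0.025. EIF3F, a translation initiation factor subunit, rose (0.39, adjusted p = 0.388) and EIF3E, a subunit of the same factor, fell (−0.32, adjusted p = 0.432). EEF1A1, the elongation factor, had 1970 FPKM ± 164 after MA and 2060 ± 71.2 without (SD, n = 3).

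The snoRNAs inside these hosts could hardly be read from this library, which selects longer tailed RNA. The table listed 15 snoRNA genes within 5 members on the same strand, and only 6 had a mean count of at least 10. SNORD22, within SNHG1, had the highest mean with 58.0 counts. A further 5 were listed at exactly 1 count in every sample. Protein-coding neighbours overlap 3 of the hosts on the opposite strand, among them ZBTB37 at GAS5, TRNAU1AP at SNHG12 and MCMDC2 at SNHG6. The libraries kept strand, but whether the counting used it is not given in the sources used here, so reads of these pairs may not be separated.

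By deposited FPKM, the hosts SNHG5, SNHG6 and GAS5 led in both groups. In PANC-1 the order was SNHG5 (21.3 FPKM ± 2.02), SNHG6 (20.6 ± 0.948), GAS5 (14.2 ± 3.54), MALAT1 (8.51 ± 4.79), SNHG1 (6.28 ± 0.432), TUG1 (4.24 ± 0.332), SNHG8 (3.97 ± 0.354), SNHG12 (1.34 ± 0.235), PVT1 (1.3 ± 0.151) and NEAT1 (0.341 ± 0.019; SD, n = 3). The samples of SNHG5 and SNHG6 overlapped, as did those of GAS5 with MALAT1, MALAT1 with SNHG1, TUG1 with SNHG8 and SNHG12 with PVT1. After MA, MALAT1 (3.05 ± 1.59) came below SNHG1 (6.52 ± 1.47) and SNHG8 (3.69 ± 0.384), and its samples overlapped those of SNHG8 and TUG1. The members were not all abundant. SNHG5 stood at percentile 88.8 of the mean FPKM of genes tested, SNHG6 at 88.0 and GAS5 at 82.3, but MALAT1 at 66.7, SNHG12 at 41.0, PVT1 at 37.3 and NEAT1 at 16.0.

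**Figure D3:**
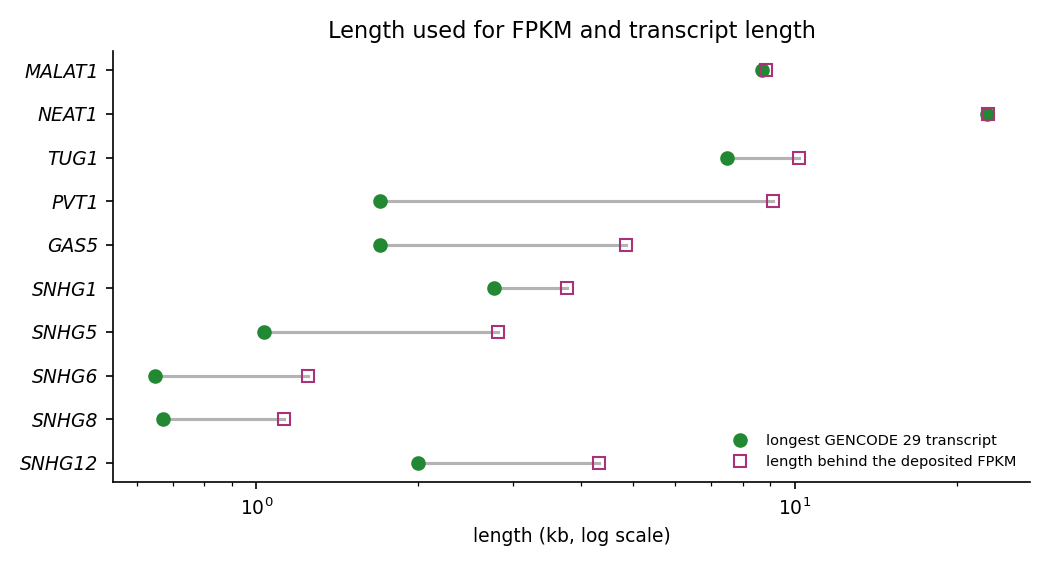
Length of the longest GENCODE 29 transcript (green circles) and the length implied by the ratio of deposited counts to FPKM (open squares), in kb on a log scale, for the 10 RNAs. The values coincide for MALAT1 and NEAT1, and for PVT1 the implied length of 9.1 kb is 5.35 times the longest transcript.

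These levels depend on the length by which the counts were divided. Comparing counts with FPKM gave an implied length of 8.83 kb for MALAT1 and 22.85 kb for NEAT1, close to their longest transcripts, but 4.85 kb for GAS5, 2.81 kb for SNHG5 and 9.1 kb for PVT1, whose longest GENCODE 29 transcripts have 1698, 1032 and 1699 bases. The implied length was within 5% of the union of all GENCODE 29 exons for 7 members, and for GAS5, SNHG8 and PVT1 it was longer, beside unions of 3631, 923 and 5493 bases. Rescaled to the longest transcript, the untreated means were 58.1 FPKM for SNHG5, 40.7 for GAS5, 39.8 for SNHG6, 8.63 for MALAT1, 8.56 for SNHG1, 6.97 for PVT1, 6.64 for SNHG8, 5.78 for TUG1, 2.91 for SNHG12 and 0.343 for NEAT1. PVT1 then stood above TUG1 and SNHG12. NEAT1 stayed lowest, but its implied length was already that of its longest form, so this rescaling could not move it. The median annotated NEAT1 transcript has 3147 bases, and levels by that length were not run. The change after MA is not touched by this, since a length is shared by all samples.

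Other noncoding RNAs were taken from fixed lists, which were also written with earlier results of these data known. Of 17 further well-known long noncoding RNAs tested, 3 fell and 0 rose (5.86% and 5.37% of all genes), with a median log2 fold change of −0.149. They were H19, an imprinted RNA (5.29 FPKM ± 2.52 without MA and 2.33 ± 0.677 with, log2 fold change −1.13), NORAD, a cytoplasmic decoy of Pumilio proteins (28.6 ± 2.18 and 21.7 ± 3.92, −0.37), and HOTAIR, an antisense RNA of the HOXC cluster (2.20 ± 0.315 and 1.41 ± 0.208, −0.60; SD, n = 3; adjusted p of 0.419 to 0.430 in edgeR). MIR22HG, a microRNA host, had 5.98 and 6.20 FPKM without and with MA, and TP53TG1 had 3.28 and 4.29, neither past the threshold. Of 20 other snoRNA host RNAs, 1 rose and 1 fell, with a median of −0.03. SNHG7 rose from 6.22 FPKM ± 0.218 to 7.57 ± 0.214 (0.32), and SNHG4 fell from 3.38 ± 0.154 to 2.40 ± 0.525 (−0.46; adjusted p = 0.417 and 0.430, edgeR). ZFAS1 and C6orf48, the most abundant of them, had log2 fold changes of −0.12 and −0.10. DANCR had 7.72 FPKM in the MA PANC-1 1 library, where the 5 other libraries had 2.25 to 2.68, and its estimate of 0.90 did not pass. Among the 897 genes of lincRNA type that were tested, 47 fell (5.24%) and 18 rose (2.01%), with a median of −0.095. Among the 12776 tested genes of protein-coding type 845 fell (6.61%) and 856 rose (6.7%), with a median of 0.011.

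Proteins that work with these RNAs gave 1 or 2 calls a list in the lower direction, beside 5.86% of all genes lower and 5.37% higher, and with lists of this size nothing particular to them is read from the counts. Of 20 nuclear speckle proteins, 2 fell (10.0%) and 0 rose. SON, a scaffold of speckles, went from 19.9 FPKM ± 0.383 to 13.9 ± 4.45 (log2 fold change −0.49), and SRSF11, a splicing factor, from 8.20 ± 0.96 to 5.00 ± 1.09 (−0.68; SD, n = 3; adjusted p = 0.433 and 0.375 in edgeR). SRSF1, which binds MALAT1, had 14.5 FPKM without MA and 16.1 with, and did not pass. Of 20 paraspeckle proteins, 1 fell (5.0%) and 0 rose, HNRNPR (−0.27, adjusted p = 0.435), and the core proteins NONO (69.5 FPKM without, 56.5 with) and SFPQ (41.2 and 41.1) did not pass. Of 12 factors of 3′ end processing of MALAT1 and NEAT1, 1 rose and 1 fell, both subunits of RNase P: RPP21 (0.36) and POP1 (−0.38; adjusted p = 0.441 and 0.431). ELAC2, the enzyme RNase Z, was at 20.4 and 20.6 FPKM.

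For the snoRNA side, 18 proteins of box C/D and H/ACA particles gave 1 rise and 1 fall (5.56% each way, beside 5.37% of all genes higher and 5.86% lower). The assembly factor SHQ1 rose (0.28) and ZNHIT6 fell (−0.37; adjusted p = 0.432 and 0.431, edgeR). The methyltransferase fibrillarin, FBL, had 1040 FPKM ± 84.1 without MA and 917 ± 60.2 with, and NOP58, another core protein of box C/D particles, had a log2 fold change of −0.46 (SE 0.2), neither past the threshold. Of 16 NMD factors, 2 fell (12.5%) and 1 rose (6.25%). The kinase SMG1, which activates the pathway, fell from 4.34 FPKM ± 0.188 to 3.08 ± 0.379 (−0.46, adjusted p = 0.346), the core factor UPF2 fell (−0.53, adjusted p = 0.441), and SMG5, which acts later in the pathway, rose (0.38, adjusted p = 0.431). Of 15 housekeeping genes, 1 rose (6.67%), PGK1 of glycolysis (0.27, adjusted p = 0.432), and the list median was 0.079.

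GC content moved with the estimates. Over 10 equal bins of genes by the GC content of the longest transcript, the median log2 fold change was −0.22 in the lowest bin and 0.16 in the highest, and −0.10 and 0.02 without MA PANC-1 2. MALAT1 has 40.3% GC, TUG1 43.1% and NEAT1 44.1%, in bins with medians of −0.17, −0.09 and −0.03. NEAT1, with a mean of 0.26 FPKM, was placed by GC content only and was not among the binned genes. PVT1, at 52.2%, lay in a bin with a median of 0.12, on the other side of 0 from its own value. With the GC trend removed the log2 fold changes were −1.32 for MALAT1, −0.82 for NEAT1, −0.48 for TUG1 and −0.46 for PVT1, each still with an unadjusted p under 0.05, and the lowest adjusted p of the members was 0.201 (edgeR). SNHG6 then had a log2 fold change of 0.02. Adding a block for replicate number to this correction left MALAT1 at −1.24 and no longer called (adjusted p = 0.398, edgeR).

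**Figure D4:**
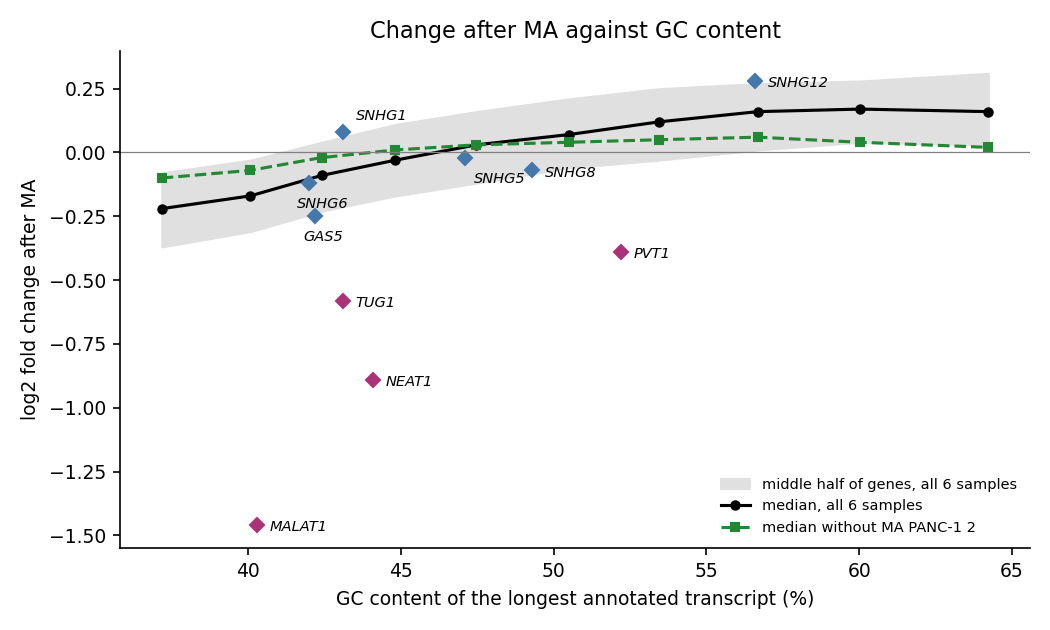
Log2 fold change after MA against GC content (%) of the longest annotated transcript: medians of 10 bins over all 6 samples (black), without MA PANC-1 2 (green), the middle 50% of genes (grey) and the 10 RNAs (diamonds, magenta where the unadjusted p was under 0.05). MALAT1, NEAT1, TUG1 and PVT1 lie below the grey band, and the black line rises from −0.22 to about 0.16.

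The genes most like MALAT1, NEAT1 and GAS5 over the 6 samples were named by Pearson's r of log2(FPKM + 0.1) over genes whose mean FPKM reached 1. For MALAT1 they were MARC2 (r = 0.993), PPP4R3A (0.991) and RTTN (0.991). For NEAT1 they were SEC24B (0.995), ARHGAP21 (0.992) and LMO7 (0.992), and for GAS5 ZNF839 (0.991), KDM4A (0.981) and DNMBP (0.98). Over 0.95 were 32, 107 and 10 of about 11470 genes, and the points share the 2 groups and the library differences given above. The levels of the partners differed less with MA than those of MALAT1 and NEAT1: their log2 fold changes were −0.17, −0.45 and −0.34 beside MALAT1 and −0.45, −0.45 and −0.39 beside NEAT1.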

How the data were processed

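Poly(A) RNA of 6 PANC-1 cultures was sequenced, 3 per group. The authors deposited 1 table with an FPKM and an estimated count per gene and sample. The deposited FPKM lists 0.0001 for no reads. Its length term was scaled on 633 to 692 genes with 1 transcript per sample. The implied length was within 5% of the union of exons for 7 of the 10 members and further from it for 3. The submitters' processing notes name cutadapt 1.9, HISAT2 2.0.4, StringTie 1.3.4d, edgeR and DESeq2, with no roles. The annotation release is not given in the sources used here; 47519 of 58825 positions equal GENCODE 29 on GRCh38. Estimated counts outnumber sequenced reads, so the spread between samples sets the precision.

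Genes whose mean FPKM reached 0.1 were tested by edgeR 4.0.16 (quasi-likelihood, TMM, R 4.3.3), with Benjamini-Hochberg adjustment over 17774 genes. SE is the log2 fold change over the root of F. DESeq2 1.42.0, limma 3.58.1 on log2(FPKM + 0.1), other scalings and filters, a replicate block, halved counts and leaving out samples were alternatives. A GC-trend correction (loess, span 0.5) and levels per longest transcript were added after seeing the data. The fits were tested on simulated data, where edgeR found 200 of 200 genes changed 4-fold among 17772, with 214 calls. The simulated spread between samples was fixed and lower than the common estimate from the data, and only genes with higher counts were changed. It therefore does not measure how often smaller changes, such as those of the members, would be found. Replicate pairs differed beyond counting noise (chi-square per degree of freedom of at least 54.5). Python 3.11.15 was used for summaries.

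Members and lists were chosen with earlier results of these data known. Named were all members, up to 4 genes of each list by smallest p and up to 4 by FPKM, 3 partners for MALAT1, NEAT1 and GAS5, and genes overlapping members. Some genes under this rule are not reported here.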

Additional observations from a re-analysis of the deposited data

How the results depend on the processing

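Over the alternatives that kept all 6 samples, TUG1 and PVT1 had an unadjusted p under 0.05 in 14 of 14, MALAT1 in 13 of 14 and NEAT1 in 13 of 13, all lower, and no host passed in any. NEAT1 has no value at a mean FPKM of at least 1, and its log2 fold change was −0.19 with a pseudocount of 1. Leaving out each sample in turn gave 2 to 5 members with p under 0.05 and 0 to 2 past the DEG thresholds, while the share of all genes with p under 0.05 ran from 6.63% (without PANC-1 1) to 18.1% (without MA PANC-1 3) and was 11.2% with all samples. The log2 fold changes then ran from −1.94 to −0.90 for MALAT1, −1.2 to −0.75 for NEAT1, −0.73 to −0.46 for TUG1, −0.45 to −0.30 for PVT1, −0.41 to −0.04 for GAS5, −0.08 to 0.18 for SNHG1, −0.08 to 0.07 for SNHG5, −0.17 to −0.04 for SNHG6, −0.14 to 0.03 for SNHG8 and 0.15 to 0.37 for SNHG12. The 2 came without MA PANC-1 1 and the 5 without PANC-1 3. The DEG count was 0 without MA PANC-1 1, MA PANC-1 2 or PANC-1 1, and 2 without MA PANC-1 3. Same-numbered samples hardly deviated together (correlations of 0.029, 0.05 and 0.072, though 6 of 6 samples correlated best with their own number), so the numbers were not taken as pairs. With the replicate block the 4 calls remained (MALAT1 −1.44, NEAT1 −0.94, TUG1 −0.59, PVT1 −0.39), and 0 genes in place of 7 passed the adjusted threshold, while 2215 in place of 1995 had p under 0.05. The replicate block with the GC trend removed left 3 members and 0 DEGs among them, where 12.5% of all genes had p under 0.05 and 1.53% were DEGs. It put MALAT1 at −1.24, no longer called (adjusted p = 0.398, edgeR), SNHG5 at 0.00 and SNHG6 at 0.02. Removing the GC trend alone put SNHG6 at 0.02. The cause was not tested. DESeq2 called 5 of the 17 further long noncoding RNAs in place of 3 and 2 of the 20 paraspeckle proteins in place of 1. It called 12.1% of all genes. RLE factors also called 2 paraspeckle proteins, beside 11.2% of all genes. With limma 2 of 4 RNAs without poly(A) tails were called in place of 1, beside 11.0% of all genes. Genes past the adjusted threshold were 7 in edgeR, 263 in DESeq2, 33 with the GC trend removed, 1 with that and the block, 12 at a mean FPKM of at least 1, and 3 to 24 on leaving out single samples. DEGs were 342, but 44 with a pseudocount of 1, 93 at a mean FPKM of at least 1, 569 with no filter and 534 without MA PANC-1 3. Levels from depth-scaled counts and a deposited gene length were not run, since the table gives no length. The spread between 3 samples a group set the precision. NEAT1, the least abundant member by FPKM, rested on 222 to 691 counts, and SNHG8 on 248 to 363.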
